A study of Mus musculus with 12 samples.

Results

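The isotonic scramble cells (Scr_300) are the reference state of the study, and their transcriptome is described here on its own, without a contrast. They are 2 of the 12 RNA-seq libraries of the series, and their members were chosen by the labels alone: every library of scramble cells kept at 300 mosmol/kg. The cells are mpkCCD cells, a mouse line derived from principal cells of the cortical collecting duct, which were transduced with a non-targeting (scramble) guide RNA. They carry no Nfat5 deletion and were cultured for 5 days without added NaCl or urea. The other groups are Scr_600, the same scramble cells kept for 5 days at 600 mosmol/kg with 100 mM NaCl and 100 mM urea added (2 libraries), and Nfat5-KO_300 and Nfat5-KO_600, cells of the knockout clones N1 and N3 in the same 2 media (4 libraries each). All groups grew on standard tissue-culture plastic, and neither vasopressin nor a corticosteroid is named in the culture protocol. The paper refers to earlier work for the cultivation and gives no full recipe, so whether the medium held such hormones is not known here. As a model, the group is 1 immortal line in culture. The methods call the libraries of a condition and genotype biological replicates, and the labels number them, without saying how the cultures were separated.

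The collecting duct is the last part of the renal tubule. Its principal cells take up sodium through the epithelial sodium channel ENaC (Scnn1a, Scnn1b and Scnn1g) and water through aquaporins, with Aqp2 in the apical membrane under the control of vasopressin and its receptor Avpr2, and Aqp3 and Aqp4 in the basolateral membrane. Its intercalated cells transport acid and base and depend on the transcription factor Foxi1. The duct arises from the ureteric bud, and the other tubule segments and the podocytes arise from a separate nephrogenic lineage, so that each has its own transporters and transcription factors.

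The deposited table holds 1 value per gene and group, the authors' mean in FPKM (fragments per kilobase of transcript, scaled to the depth of the library), and no value per library. A gene at 1 FPKM or more is called expressed, one under 0.1 FPKM absent, and one in between low. Multiplied by the gene's exon length, the Scr_300 value of a gene is the sum of whole reads of 2 libraries with unequal weights, so that the reads of each library could be recovered for 19654 of the 22036 genes above 0 with a known length (89.2%). Which of them is which labelled culture is unknown, and they are called library A and library B. The recovered reads came to 17612281 in library A and 15898266 in library B and stood for 60.3% of the length-weighted FPKM. For most of the highest genes several pairs of whole numbers give the same mean, and only the mean is given for them. At this depth 1 FPKM is 67.9 reads per kilobase over both libraries, and a gene with no read can still lie at up to 3 reads. Intervals and limits cover counting error only.

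Of 52015 genes, 11103 were expressed (21.3%), 4636 were low and 36276 were absent (69.7%), of which 29894 had a value of 0. Of 21794 protein-coding genes, 9866 were expressed (45.3%) and 10053 were absent (46.1%). The expressed genes also held 707 pseudogenes, 271 long noncoding RNAs and 181 small RNAs. The median of the expressed protein-coding genes was 8.55 FPKM. Levels of 10 FPKM or more were reached by 4663 genes, 100 FPKM or more by 384 and 1000 FPKM or more by 13. The 10 most abundant genes held 6.70% of the summed FPKM, the 100 most abundant 24.0% and the 1000 most abundant 58.2%.

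**Figure D1:**
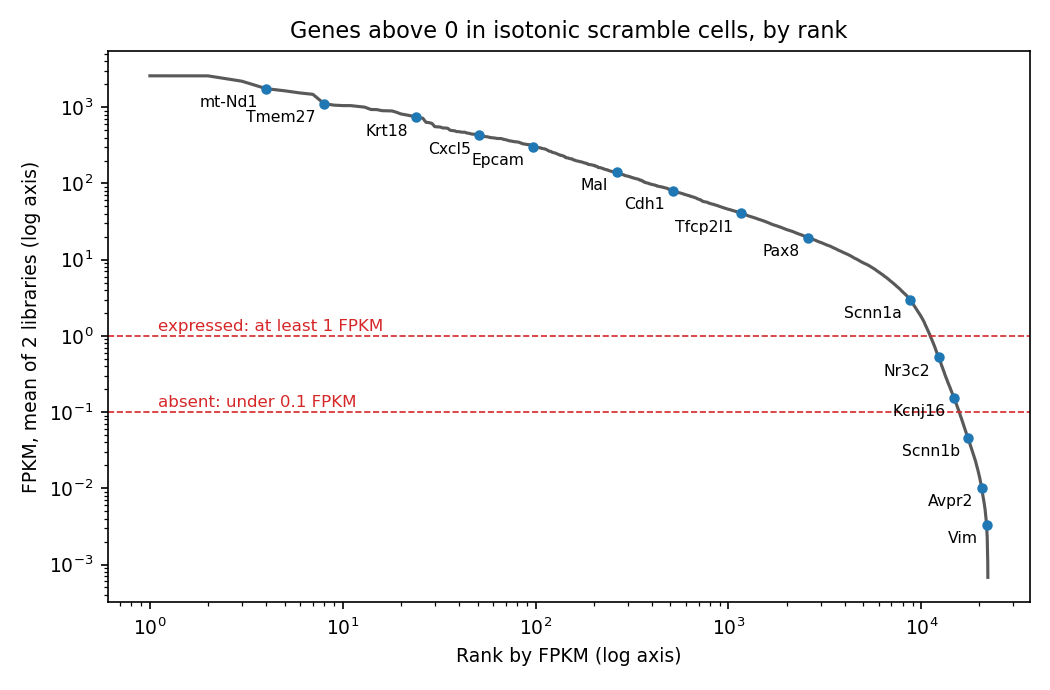
FPKM of each gene above 0 (vertical log axis, mean of the 2 libraries) against its rank (horizontal log axis), with the 1 and 0.1 FPKM thresholds as dashed lines and named genes as points. Tmem27 (1114 FPKM), Krt18 (738) and Epcam (304) lie near the top, Scnn1a (2.95) just above the expression threshold, and Scnn1b (0.0455), Avpr2 (0.0102) and Vim (0.00330) in the steep fall below 0.1 FPKM.

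The most abundant genes served protein synthesis and the mitochondrial respiratory chain. The highest level, 2583 FPKM, was that of mt-Co1, a cytochrome c oxidase subunit that the mitochondrial genome encodes. Eef1a1, the elongation factor that brings aminoacyl-tRNA to the ribosome, followed at 2580 FPKM. Of the 30 most abundant genes, those that code for ribosomal proteins were led by Rps15 at 1642 FPKM, Rpl41 at 1540 FPKM and Rplp1 at 1476 FPKM. The mitochondrial genes mt-Nd1 (1756 FPKM), mt-Cytb (1050) and mt-Nd2 (799) and the translocase Eef2 (901) were also among them. Of 89 cytosolic ribosomal proteins 82 were expressed (92.1%, against 45.3% of all protein-coding genes). As a family they made up 11.2% of the summed FPKM, and the mitochondrial genome made up 3.52%. Since these transcripts are short, their shares of the reads were lower, 5.68% and 1.22%.

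Some of these positions depend on reads that several genes share. Gm23935, the third gene at 2195 FPKM, is annotated as a small RNA gene of 57 bases (chromosome 16, 11144125 to 11144181), shorter than the 75-base windows used to look for shared sequence, and a library of polyadenylated RNA is not made to measure it. Rps26-ps1, a processed pseudogene, stood at 817 FPKM and its parent gene Rps26 at 300 FPKM, and 55.2% of the pseudogene's 75-base windows occur in other genes' transcripts. The same holds for Gm8730 (763 FPKM, 54.0% of windows, closest to Rplp0), Gm15772 (718 FPKM, 71.4%, closest to Rpl26) and Gm9794 (556 FPKM, 78.5%, closest to Rpl23). The mitochondrial genes mt-Co2 (45.4 FPKM), mt-Co3 (23.7 FPKM) and mt-Atp6 (21.3 FPKM) were far below mt-Co1, and 99.5%, 99.9% and 99.5% of their windows occur in other genes' transcripts, against 39.8% for mt-Co1 and 0% for mt-Nd1. How the reads of such copies were divided cannot be told from these values, so the levels of these genes are uncertain. So are the shares given for the cytosolic ribosomal protein and mitochondrial genome families. Pseudogenes of all kinds together held 6.72% of the summed FPKM.

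Ribosomal protein messages are known for a pyrimidine run that begins with C at the first transcribed base, the 5′ terminal oligopyrimidine (TOP) element through which their translation is regulated. It was searched for as a C within 2 bases of the RefSeq start (GRCm38.p6), on the transcribed strand, followed by at least 4 bases that are each C or T. Promoters were found for 59 of the 79 expressed ribosomal protein genes annotated as protein-coding, and 21 of them held the run (35.6%), against 10.5% of 16766 protein-coding genes and 8.96% of all 32851 promoters in the reference table. The following stretches, 14 bases before the annotated start and 16 from it, match this search in some of the most abundant genes of these cells. Whether a matching run is the TOP element of the transcript was not tested. The run is in capitals.
Eef1a1, 2580 FPKM, chr9:78481709-78481738, minus strand: ctggctccgccctCTTCCCgagggtggggg
Fau, 896 FPKM, chr19:6057933-6057962, plus strand: gcgcgcccccacttCTTCCTCTTTCTTgac
Rpl38, 613 FPKM, chr11:114668566-114668595, plus strand: gcggaagcctcgttCTTTCCCCgttctctt
Rps6, 448 FPKM, chr4:86857352-86857381, minus strand: agcggaagtcgggcCTCTTTTTCgtgacgc
Rps18, 359 FPKM, chr17:33955650-33955679, minus strand: acgtcacttccgctCTCTCTTCCacaggag
Rpl35, 270 FPKM, chr2:39005116-39005145, minus strand: ggccccgccctttcCTCTTTCTCTCgaacc
Rpl15, 197 FPKM, chr14:18270971-18271000, minus strand: tgggagaaagccttCTTCCTTTCCTCTggc

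The search tried the annotated first base before its neighbours. It found a match there in 6 of these 7 genes, and 1 base before it in Eef1a1. The capitals do not show where a run of pyrimidines begins, since more of them precede the capitals, as in Fau, Rpl35 and Rpl15. A missing run says only that these letters are not within 2 bases of the annotated start. The 100 most abundant protein-coding genes were short, with a median exon length of 1755 bases against 4484 bases over all expressed protein-coding genes and 2577 bases over the absent ones. A TATA box (TATAAA, 20 to 40 bases before the start, plus strand) was found in 1.07% of the expressed and 5.01% of the absent protein-coding genes with a promoter. The CCAAT box (CCAAT on either strand, within 150 bases before the start but not in the last 40) was found in 27.3% and 22.1%. These shares are descriptions without a test.

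Outside translation and respiration, several of the highest genes are known for epithelia. Tmem27, which codes for collectrin, a homologue of angiotensin-converting enzyme 2 (chromosome X, 164088830 to 164118860 of GRCm38), was the eighth gene at 1114 FPKM. It is on none of the segment lists used here. The intermediate filament gene Krt18 had 738 FPKM (chromosome 15, 102028180 to 102032027). Wfdc2, a secreted protease inhibitor of epithelia, had 628 FPKM, and no 75-base window of these 3 genes occurs in another gene. The calcium-binding proteins S100a11 and S100a6 had 858 and 535 FPKM, the chaperone Hsp90ab1 934 FPKM and the nuclear protein gene Ptma 781 FPKM. The ferritin light chain Ftl1 had 726 FPKM and the cytokine Mif 635 FPKM. Other genes share 42.3% of the windows of Ftl1, 37.8% of S100a11, 28.2% of Mif and 15.6% of Ptma, so these levels are less certain. Further genes, chosen here after their values were seen, were the neutrophil chemokine Cxcl5 at 428 FPKM, the platelet chemokine Ppbp at 289 FPKM, the galectin Lgals1 at 378 FPKM, the lipid desaturase Scd2 at 296 FPKM and Olfm4, a secreted glycoprotein of epithelia, at 150 FPKM.

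**Figure D2:**
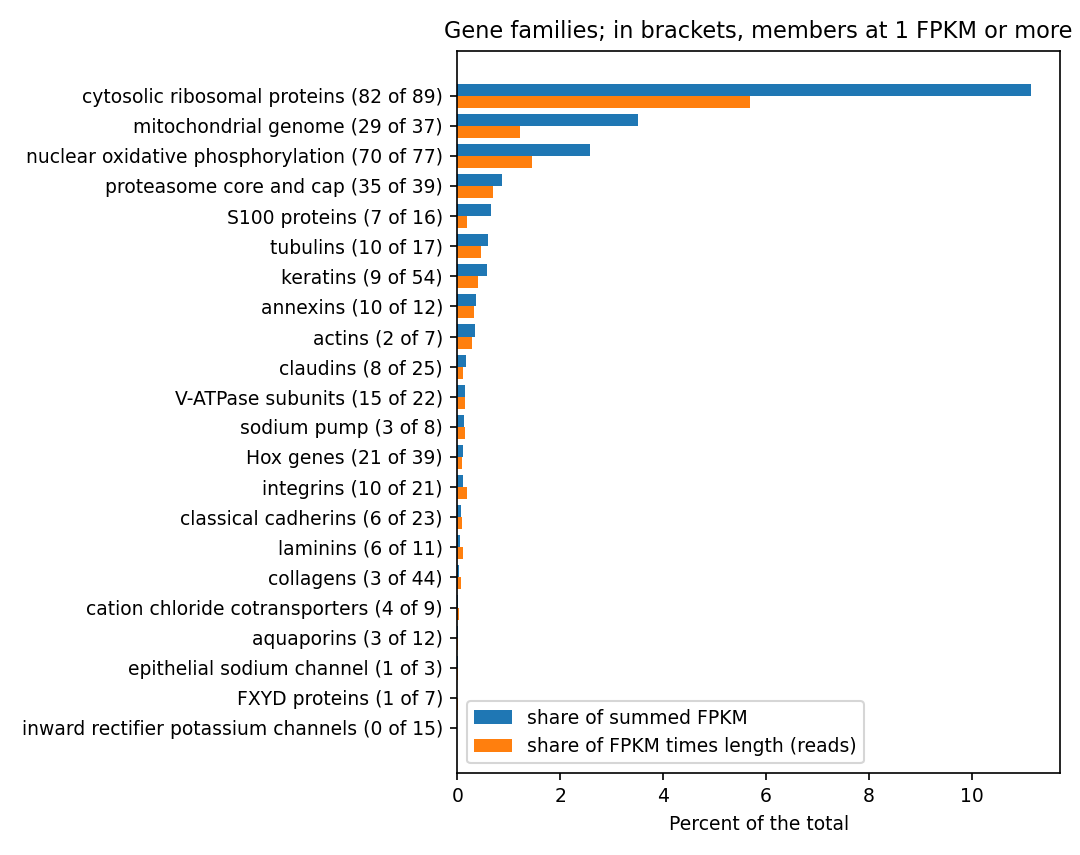
Share of the summed FPKM (blue) and of FPKM times length, which stands for reads (orange), in percent, for each gene family, with the number of members at 1 FPKM or more of those measured in brackets. Cytosolic ribosomal proteins hold 11.2% of the FPKM and 5.68% of the reads, the mitochondrial genome 3.52% and 1.22%, and the epithelial sodium channel, aquaporin, FXYD and inward rectifier families too little to be seen.

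All 39 genes of the epithelial list were expressed, against 45.3% of protein-coding genes. Their median was 33.4 FPKM. The adhesion genes Epcam and Cdh1 (E-cadherin) had 304 and 79.8 FPKM, and Cdh16, the kidney cadherin, had 33.5 FPKM. Of the tight junction genes, Tjp1 had 42.5 FPKM, F11r 32.4 FPKM and Ocln 13.6 FPKM. The desmosome genes Jup (39.4 FPKM), Dsg2 (19.1), Dsp (13.97) and Pkp2 (8.92) were expressed too. Esrp1 and Esrp2, which direct the epithelial form of splicing, had 23.4 and 19.0 FPKM. The lowest member was the catenin Ctnnd1 at 2.88 FPKM, of whose exon bases 61.2% also belong to another annotated gene. In the 25 members with at least 100 recovered reads the log2 ratio of library B to library A ran from -0.38 to 0.54.

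The members of the epithelial families were used unequally. Of 54 keratin genes, 9 were expressed (16.7%, against 45.3% of all protein-coding genes). The simple-epithelial Krt18 (738 FPKM), Krt8 (370), Krt7 (161) and Krt19 (154) lay far above Krt20 (18.7), the basal keratin Krt5 (8.51), Krt80 (7.61), Krt4 (2.45) and Krt10 (1.24). Of 25 claudins, which set the permeability of tight junctions, 8 were expressed (32%). They were Cldn6 (147 FPKM), Cldn3 (102), Cldn4 (66.0), Cldn7 (65.6), Cldn12 (25.6), Cldn9 (22.9), Cldn1 (6.79) and Cldn23 (2.63). Cldn8, a claudin of the distal nephron, was low at 0.291 FPKM. Cldn10, of the thick ascending limb and proximal tubule, and Cldn5, of endothelium, had no read. Among the classical cadherins, Cdh3 (P-cadherin) had 34.8 FPKM beside Cdh1.

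Of 25 principal cell genes, 8 were expressed (32%, against 45.3% of all protein-coding genes), 7 were low and 10 were absent (40%, against 46.1%), 4 of them with no read in either library. After rescaling to TPM, 12 of the 25 were expressed and 7 were absent. The members of the list lay far apart. The expressed members were Mal (141 FPKM), a raft protein of apical transport, Npnt (52.4), a basement membrane ligand of integrins, Tfcp2l1 (40.6), a transcription factor of the collecting duct, L1cam (6.90), Nedd4l (4.82), the ubiquitin ligase that removes ENaC, Gata3 (3.41), Scnn1a (2.95) and Aqp3 (2.91). Scnn1a, the pore-forming ENaC subunit (chromosome 6, 125320659 to 125344943), had 1.75 FPKM in library A and 4.16 in library B. Aqp3 had 1.95 and 3.86 FPKM. Of the 6 members with at least 100 recovered reads, Scnn1a was at least 2-fold higher in library B and the mineralocorticoid receptor Nr3c2 in library A.

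The genes that define the vasopressin-regulated principal cell were at or near 0. Aqp2 (chromosome 15, 99579055 to 99584547) had 0 reads in library A and 0 in library B, which allows up to 0.0311 FPKM. Kcnj1, the potassium secretory channel ROMK, had no read and a limit of 0.0133 FPKM. Scnn1b had 3 and 5 reads, or 0.0455 FPKM with a 95% Poisson interval of 0.0197 to 0.0897, and Scnn1g had 10 and 8 reads, or 0.0883 FPKM. Avpr2 had 1 and 1 read, or 0.0102 FPKM, but 81.3% of its exon bases also belong to another annotated gene, so its level is uncertain. Aqp4 was absent at 0.0452 FPKM, and the urea transporter Slc14a2 at 0.00538 FPKM. The defining marker Aqp2 of the labelled cell type was thus not detectable at this depth, while Tfcp2l1 and Gata3, transcription factors of the list, were expressed. Elf5, another transcription factor of the list, was not among its expressed members.

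**Figure D3:**
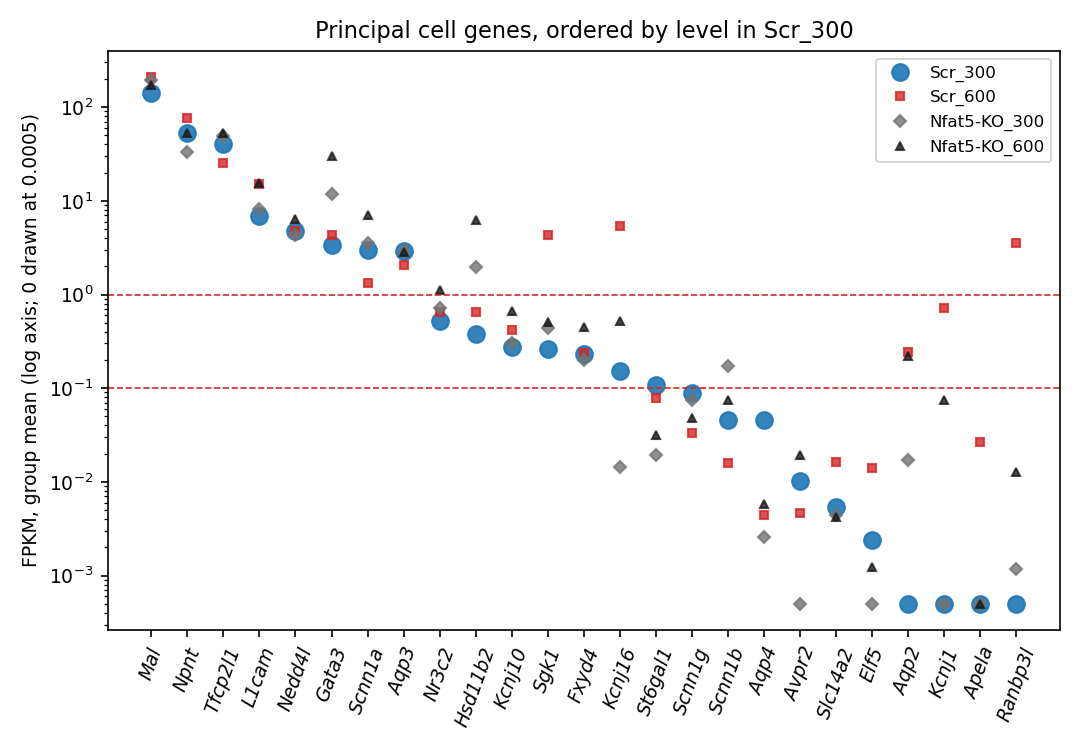
FPKM (vertical log axis, mean of each group, 0 drawn at the bottom) of the 25 principal cell genes, ordered by their level in Scr_300 (large circles), with the other 3 groups as small symbols and the 1 and 0.1 FPKM thresholds as dashed lines. In Scr_300 the circles run from Mal at 141 FPKM to Aqp2, Kcnj1, Apela and Ranbp3l at 0.

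The mineralocorticoid machinery lay between these. The mineralocorticoid receptor Nr3c2 was low at 0.521 FPKM (0.752 in library A and 0.290 in library B), and Hsd11b2, the enzyme that shields it from glucocorticoids, was low at 0.383 FPKM with 48 reads. Its target Sgk1, the kinase that raises ENaC, had 0.262 FPKM, 0.346 and 0.179 in the libraries. The glucocorticoid receptor Nr3c1 was expressed at 10.7 FPKM, and so were its targets Fkbp5 (13.1 FPKM), Tsc22d3 (4.09, with 2.63 in library A and 5.55 in library B) and Per1 (2.26), the kinases Wnk4 (12.2) and Wnk1 (9.45) and the protease Prss8 (13.0), which cleaves ENaC. Of the 12 corticosteroid genes 8 were expressed (66.7%, against 45.3% of all protein-coding genes) and none was absent.

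Of 19 vasopressin and cAMP genes, 9 were expressed (47.4%), a share near the 45.3% of all protein-coding genes. The kinase subunits Prkar1a (88.0 FPKM), Prkaca (56.7), Prkar2a (40.1) and Prkar2b (31.2) led them, with adenylyl cyclase Adcy6 at 16.6 FPKM, the transcription factor Creb1 at 5.36 FPKM and the stimulatory G protein Gnas at 6.39 FPKM. Gnas shares 22.0% of its exon bases with other annotated genes. Of the prostaglandin E receptors, Ptger4 was expressed at 1.37 FPKM, Ptger1 was low at 0.124 FPKM, with 71.0% of its exon bases in another gene as well, and Ptger2 and Ptger3 had no read. The vasopressin receptor Avpr1a had none either, and the oxytocin receptor Oxtr was absent at 0.0494 FPKM.

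Of the 8 sodium pump genes 3 were expressed (37.5%, against 45.3% of all protein-coding genes). The beta subunit genes Atp1b1 and Atp1b3 had 101 and 37.4 FPKM. Slc12a2, the basolateral sodium-potassium-chloride cotransporter, had 21.6 FPKM, against 0.0124 for Slc12a1 of the loop of Henle and 0.00250 for Slc12a3 of the distal tubule. None of 15 inward rectifier potassium channel genes reached 1 FPKM, and Kcnj14 led at 0.477 FPKM, with Kcnj10 at 0.278 and Kcnj16 at 0.152. Kcnj16 had 0.0495 FPKM in library A and 0.254 in library B. Of the FXYD regulators of the sodium pump, Fxyd5 was expressed at 1.37 FPKM, and the collecting duct member Fxyd4 was low at 0.231 FPKM.

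Of 12 aquaporins, 3 were expressed (25%, against 45.3% of all protein-coding genes), and the highest was Aqp1. This constitutive water channel of the proximal tubule and thin descending limb (chromosome 6, 55336432 to 55348555) had 23.6 FPKM, with 3199 reads or 33.9 FPKM in library A and 1123 reads or 13.4 FPKM in library B. Its level in both libraries was above every level of Aqp3 and Aqp5, the other expressed aquaporins. Aqp5 had 1.20 FPKM in library A and 3.75 in library B, so that the 2 libraries put these genes apart in opposite directions. The intercalated cell aquaporin Aqp6 was low at 0.139 FPKM.

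Genes of the other tubule segments were mostly absent. Of 28 proximal tubule genes none was expressed and 26 were absent (92.9%, against 46.1% of protein-coding genes), with Slc6a19, a neutral amino acid transporter, the highest at 0.411 FPKM. After rescaling to TPM, 2 of the 28 passed 1. Hnf4a, the master regulator of that segment, and the organic anion transporters Slc22a6 and Slc22a8 had no read, and the endocytic receptor Lrp2 (megalin) had 1. Of 16 loop of Henle genes, Aqp1 and Bst1 (21.8 FPKM) were expressed (12.5%, against 45.3% of protein-coding genes). Absent were 12 of them (75%, against 46.1%), including Umod (0.0484 FPKM). Of 15 distal convoluted and connecting tubule genes, Wnk4 (12.2 FPKM) and the magnesium transporter Cnnm2 (3.41) were expressed (13.3%, against 45.3%). Absent were 10 (66.7%, against 46.1%), 8 of them with a value of 0, including Calb1, Pvalb and Trpv5. The chloride channel subunit Bsnd was low at 0.743 FPKM, 0.273 in library A and 1.21 in library B. S100g, a calcium-binding protein, was low at 0.807 FPKM, with 2 reads in library A and 23 in library B.

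Of 25 intercalated cell genes, 4 were expressed (16%, against 45.3% of all protein-coding genes) and 14 were absent (56%, against 46.1%). The carbonic anhydrases Car12 (6.38 FPKM) and Car2 (2.39) and the transcription factors Dmrt2 (1.67) and Hmx2 (1.61) were the expressed ones. Foxi1 had no read, which allows up to 0.0187 FPKM, and neither had Atp6v0d2, Atp6v1g3 or Kit. The proton pump subunit of these cells, Atp6v1b1, was low at 0.973 FPKM, 1.46 in library A and 0.485 in library B, while its counterpart in other cells, Atp6v1b2, had 14.8 FPKM. Of the 22 V-ATPase subunits 15 were expressed (68.2%, against 45.3% of all protein-coding genes), led by Atp6v1g1 at 84.6 FPKM. The anion exchangers Slc4a1 (0.0217 FPKM) and Slc26a4 (0.0453) were absent.

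**Figure D4:**
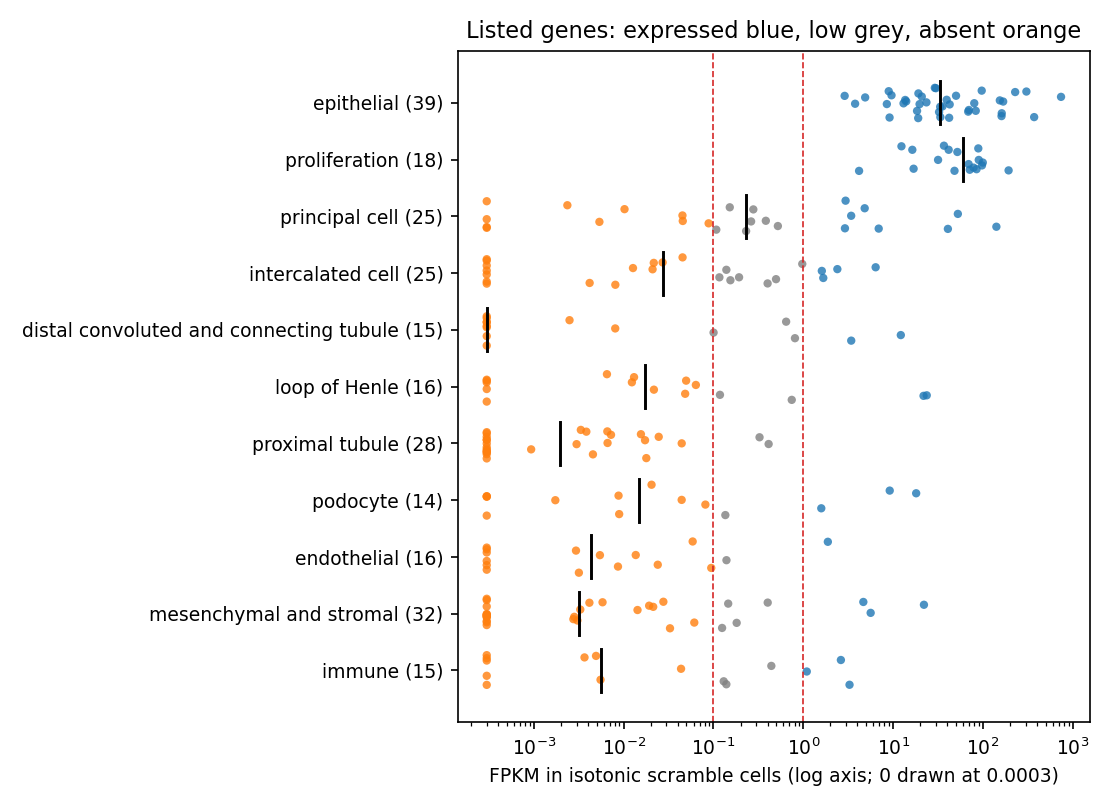
FPKM in Scr_300 (horizontal log axis, 0 drawn at the left edge) of each gene of 11 lists, blue where expressed, grey where low and orange where absent; the black bar is the list's median and dashed lines mark 0.1 and 1 FPKM. All epithelial and proliferation genes lie to the right of 1 FPKM, principal cell genes spread over the whole range, and the lists of the other cell types have medians under 0.1 FPKM.

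Genes of cells outside the tubule were mostly absent. Of 32 mesenchymal and stromal genes, 3 were expressed, the matrix protein Fn1 (22.0 FPKM), N-cadherin Cdh2 (5.61) and the fibronectin receptor subunit Itga5 (4.65). The other 29 stood below 1 FPKM, 25 of them absent. Absent were thus 78.1% of this list, against 46.1% of protein-coding genes. In the podocyte, endothelial and immune lists 71.4%, 87.5% and 60% were absent, the immune share being the nearest to that of protein-coding genes. Expressed were 9.38% of the mesenchymal and stromal, 21.4% of the podocyte, 6.25% of the endothelial and 20% of the immune genes, against 45.3%. Vimentin (Vim), the intermediate filament of mesenchymal cells, had 1 read in 2 libraries (0.00330 FPKM, upper limit 0.0184), and Zeb1, Twist1, Snai2, Col1a2, Col3a1 and Pdgfrb had none. Snai1 was low at 0.181 FPKM. Of 14 podocyte genes, Nes (18.0 FPKM), Podxl (9.15) and Synpo (1.58) were expressed, and Nphs1, Wt1 and Ptpro had no read. Of 16 endothelial genes Egfl7 alone was expressed, at 1.87 FPKM, and Kdr, Cldn5 and Erg had no read. Of 15 immune genes, Csf1r (3.27 FPKM, 1.90 in library A and 4.64 in library B), Cd68 (2.62) and Cd74 (1.09, with 1.46 in library A and 0.726 in library B) were expressed, while Ptprc, the common leukocyte antigen, had 6 reads (0.00494 FPKM) and Adgre1, C1qa and Tyrobp had none.

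Of 38 kidney transcription factors, 22 were expressed (57.9%, against 45.3% of all protein-coding genes). Absent were 15 (39.5%, against 46.1%), and 1 was low (Sim1, 0.876 FPKM). The epithelial factors Elf3 (46.1 FPKM), Ehf (24.7) and Grhl2 (9.11), the collecting duct factor Tfcp2l1 (40.6), the ureteric factors Hoxb7 (34.0) and Emx2 (12.1) and the general kidney factors Pax8 (19.5) and Pax2 (6.59) were expressed. Esrrb had 21.6 FPKM, while Esrrg had no read. The nephron progenitor factors Six2, Cited1 and Sall1, the stromal Foxd1, the proximal Hnf4a and the distal Pou3f3 and Tfap2b had no read either, and Lhx1 had 2. Osr1 (4.50 FPKM) and Eya1 (6.21), which are known from the nephrogenic mesenchyme, were expressed.

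Of 39 Hox genes, 21 were expressed (53.8%, against 45.3% of all protein-coding genes). The highest were Hoxb9 (102 FPKM), Hoxb7 (34.0), Hoxb6 (28.2) and Hoxd8 (27.2). Genes of clusters A, B and D were among the expressed members, and of cluster C only Hoxc6 passed 0.1 FPKM, at 0.119. Of 16 ureteric bud genes 10 were expressed (62.5%, against 45.3%), and Wnt7b, the duct signal that shapes the medulla, had 94.4 FPKM. Etv4 (14.9 FPKM), Spry1 (7.41) and Etv5 (3.41), targets of receptor tyrosine kinase signalling, were expressed, while the receptor Ret and its co-receptor Gfra1, which drive branching of the bud, and the signals Wnt9b and Wnt11 had no read.

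All 18 genes of the proliferation list, which also holds inhibitors of the cell cycle, were expressed, against 45.3% of all protein-coding genes. Pcna had 192 FPKM, Ccnd1 99.3, Top2a 69.1, Cdk1 51.8 and Mki67 36.7 FPKM. Of the list's inhibitors and p53 genes, Cdkn2a had 84.6 FPKM and Trp53 (p53) 41.4, while the p53 targets Cdkn1a and Mdm2 had 16.9 and 12.4 FPKM. Genes of tubular injury were also expressed, 13 of 15 (86.7%, against 45.3% of all protein-coding genes). They were led by Lcn2, an iron-siderophore carrier, at 105 FPKM, Igfbp7 at 66.5 FPKM and Timp2 at 62.4 FPKM. Sox9 had 10.4 FPKM and Vcam1 1.56 FPKM. Ccl2 (0.640 FPKM) and Havcr1 (KIM-1, 0.172 FPKM, 27 reads), a marker of proximal injury, were low. All 20 housekeeping genes were expressed, against 45.3% of all protein-coding genes. Of the 6 genes of the X and Y chromosome list, the Y-linked Ddx3y, Uty, Kdm5d and Eif2s3y and the antisense gene Tsix had no read and Xist had 1.

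For osmoprotection, 8 of 11 genes were expressed without added salt (72.7%, against 45.3% of all protein-coding genes). Nfat5, the tonicity-responsive factor itself and the gene targeted in the knockout groups (chromosome 8, 107293470 to 107379517), had 5.61 FPKM, with 5.61 in library A and 5.60 in library B. In the other groups it had 7.93 (Scr_600), 3.47 (Nfat5-KO_300) and 6.88 FPKM (Nfat5-KO_600). Its transcript was measured in both knockout groups, and its level is no check of the edit. The aldose reductase Akr1b3 (23.8 FPKM), the taurine transporter Slc6a6 (18.3) and the inositol transporter Slc5a3 (2.12) were expressed, and the betaine transporter Slc6a12 was absent at 0.00512 FPKM with 1 read. Hspa1b had 91.1 FPKM, but 55.8% of its windows occur in other genes, closest to Hspa1a (0.439 FPKM).

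Of the matrix families, laminins had 54.5% and collagens 6.82% of their members expressed, and of the adhesion families integrins had 47.6%, against 45.3% of all protein-coding genes. Laminin genes Lamb3 (32.5 FPKM), Lama5 (27.5) and Lamb1 (17.5) led 6 expressed of 11. Of 44 collagens 3 were expressed, Col18a1 (61.6 FPKM), Col4a5 (18.9) and Col8a1 (2.99), with Col4a1 and Col4a2 low at 0.844 and 0.758 FPKM. The integrin genes Itgb1 (130 FPKM) and Itga3 (84.1) were the highest of 10 expressed of 21. The annexins Anxa5 (294 FPKM), Anxa1 (242) and Anxa3 (147) were the highest of 10 expressed of 12 (83.3%, against 45.3%).

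The 2 libraries agreed closely for most genes. Over 10348 genes with at least 100 recovered reads, the SD of the log2 ratio of library B to library A was 0.34 and 93.0% of genes were within 1.5-fold. At least 2-fold higher in library B were 103 genes (0.995%), and at least 2-fold higher in library A were 65 (0.628%). With 1 library on each side this has no replicate check. Of 305 listed genes with both values, 287 fell in the same class in both libraries, and none was expressed in one and absent in the other. The 48 listed genes without recovered reads include Krt18, Epcam and Mal.

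The genes furthest apart formed groups, which were noticed after the values were seen and are a description only. Higher in library B were genes of the amino acid response driven by Atf4. Trib3, a pseudokinase of that response, had 442 reads in library A and 3507 in library B (5.79 and 51.6 FPKM, log2 ratio 3.16, 95% counting interval 3.01 to 3.30). Slc7a11, the cystine importer, had 303 and 1576 reads, and Chac1, which degrades glutathione, had 355 and 1654. Of 27 genes of a list of known Atf4 targets with enough reads, written after this was seen, 18 were at least 2-fold higher in library B and none in library A, with a median log2 ratio of 1.26, against 0.017 over all 10348 genes. Cbs (log2 ratio -0.78) and Atf3 (-0.20) of that list were the 2 members that were higher in library A.

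Some immediate early and chemokine genes were higher in library A, on lists also written after the values were seen. Egr1, a transcription factor of that kind, had 2256 and 481 reads, and the phosphatase gene Dusp1 1636 and 366 (13.8 and 3.46 FPKM). Of 17 immediate early genes with enough reads, 3 were at least 2-fold higher in library A and 1, Klf4, in library B, with a median log2 ratio of -0.34. Higher in library B at all were 5 of the 17. Of 10 chemokine genes, Cxcl2 (24.8 and 8.53 FPKM), Cxcl1 (36.4 and 14.6) and Ccl20 were at least 2-fold higher in library A, and the median was -0.55. Gapdh, a glycolytic enzyme often used as a reference gene, was the gene furthest apart, with 441 reads (2.97 FPKM) in library A and 5209 reads (39.4 FPKM) in library B. The part of its many processed copies in this gap was not tested: 22.6% of its windows occur in other genes, of which there are 118. Other reference genes were alike, such as B2m (193 and 185 FPKM), Hprt (71.0 and 75.7), Sdha (51.4 and 51.8) and Tbp (3.59 and 3.44).

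**Figure D5:**
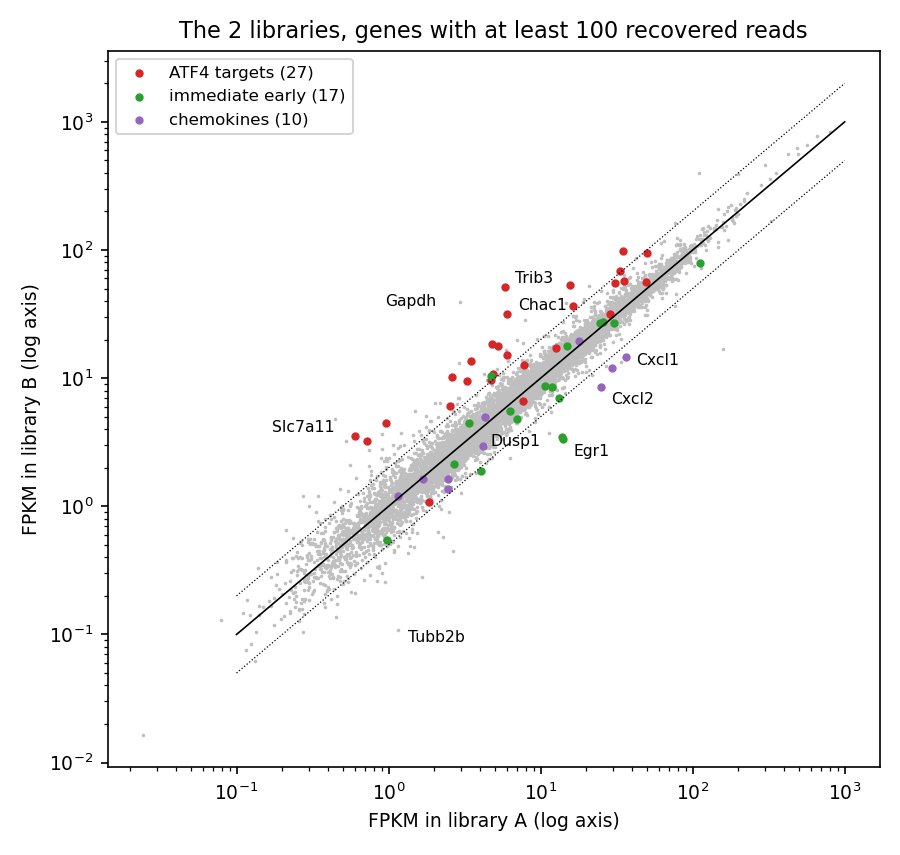
FPKM in library A (horizontal) and library B (vertical), both log axes, of 10348 genes with at least 100 recovered reads (grey), with Atf4 targets in red, immediate early genes in green and chemokines in purple. The solid line marks equal levels and the dotted lines a 2-fold difference; Trib3 lies at 5.79 and 51.6 FPKM, Dusp1 at 13.8 and 3.46, and Gapdh at 2.97 and 39.4.

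The classes of the listed genes were close to those of the other groups. Of 353 distinct listed genes, 159 were expressed, 40 were low and 154 were absent in Scr_300. Scr_600 had 329 of them in the same class (93.2%, against 95.1% of all 52015 genes), Nfat5-KO_300 had 328 (92.9% against 95.7%) and Nfat5-KO_600 had 320 (90.7% against 93.8%). No listed gene expressed in Scr_300 was absent in another group. The 3 genes absent in Scr_300 that were expressed elsewhere were Ranbp3l (0 in Scr_300 and 3.53 FPKM in Scr_600), Slc6a12 (0.00512 and 2.10) and Lrp2 (0.000936 in Scr_300 and 1.07 in Nfat5-KO_600). Each group has 1 mean value here, so these differences have no test.

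For some of the genes described above, the values in the 4 groups stand side by side as follows. Aqp2 had 0 FPKM in Scr_300, 0.245 in Scr_600, 0.0171 in Nfat5-KO_300 and 0.219 in Nfat5-KO_600, and it reached 1 FPKM in none of them. Hsd11b2 had 0.383, 0.655, 1.95 and 6.18 FPKM in the same order. Gata3 had 3.41, 4.33, 11.8 and 30.04 FPKM. Scnn1a had 2.95, 1.31, 3.56 and 7.03 FPKM, and Aqp3 had 2.91, 2.07, 2.93 and 2.82 FPKM. Aqp1 had 23.6, 318, 0.653 and 3.51 FPKM, so that both recovered Scr_300 libraries, at 33.9 and 13.4 FPKM, stood above the means of both knockout groups and below that of Scr_600. The epithelial genes Cdh1 (79.8, 72.7, 103 and 84.1 FPKM) and Epcam (304, 279, 233 and 211) were expressed at similar orders of magnitude in every group.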

How the data were processed

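RNA-seq of polyadenylated RNA gave 12 libraries of mpkCCD cells, 2 of them of isotonic scramble cells. Per the methods and the labels, the authors mapped paired-end reads to GRCm38 (mm10) with HISAT2, counted them per gene with HTSeq and scaled the counts by gene length and depth. The methods name the result RPKM, while the deposited table is labelled FPKM, the name used here. Tool versions and the annotation release are not given in the sources used here. The deposited FPKM values hold 1 mean per gene and group. Of 54839 rows, 2436 had no value, 311 were exact duplicates and 37 symbols had several different rows and were left out, which left 52015 genes, 51778 of them matched to GENCODE M21 by symbol (129 by an older symbol).

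Whole reads of both libraries were recovered by solving FPKM times exon length for 2 whole numbers, and a solution was kept only where it was unique and fewer than 0.01 solutions were expected by chance. A wrong length, 7 bases off, gave a solution for 0.0953% of genes. The step was tested on simulated data. Intervals are exact Poisson intervals at 95%, or exact binomial (Clopper-Pearson) intervals for the log2 ratio of the libraries. Such ratios have 0.5 read added in each library.

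No comparison was tested. The members, lists and families were chosen with earlier results of these data known, and the named genes are the 30 most abundant, every listed gene and leading members of families. Lists of Atf4 targets, immediate early genes and chemokines, and the values of each library alone, were added after the data were seen. Shared sequence was the share of a gene's 75-base transcript windows found in other genes' M21 transcripts. Promoters came from RefSeq. Scripts ran in Python 3.11.15 with scipy 1.17.1, pandas 2.3.3, matplotlib 3.10.9 and numpy 2.4.6. Alternatives were other thresholds, rescaling, protein-coding genes, summed rows, read shares and each library alone. A few listed genes are not reported here by name.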

Additional observations from a re-analysis of the deposited data

How the results depend on the processing

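The counts of expressed and absent genes over all genes, and over all listed genes together, stayed within 1.5 times of those reported under every alternative tried. Expressed genes numbered 11103, from 9716 at thresholds of 2 and 0.2 FPKM to 13665 after rescaling to TPM (a factor of 3.94), and listed expressed genes 159, from 151 to 181. Absent genes numbered 36276, from 33160 to 37841, and listed absent genes 154, from 135 to 171. A median-of-ratios factor of 1.00 changed none of these counts. With each library alone, expressed genes numbered 11070 and 11127, absent genes 36269 and 36565, and listed genes 160 expressed in both and 157 to 161 absent; genes without recovered reads kept the mean. Some counts of single lists moved further. After rescaling to TPM, 2 proximal tubule genes were expressed in place of 0, 7 intercalated cell genes in place of 4 and 4 distal convoluted and connecting tubule genes in place of 2. That last count was also 4 at thresholds of 0.5 and 0.05 FPKM. Other lists stayed within 1.5 times but changed after rescaling to TPM. Principal cell genes went from 8 to 12 expressed and from 10 to 7 absent. Expressed corticosteroid genes went from 8 to 12, and expressed vasopressin and cAMP genes from 9 to 13. At 2 and 0.2 FPKM, 2 intercalated cell and 0 endothelial genes were expressed, and 1 tubular injury gene was absent. Shares of the total depend on the measure. The 30 most abundant genes held 13.1% of the summed FPKM, 7.01% of FPKM times length and 12.7% with genes under 200 bases left out. Ribosomal proteins held 11.2% of the FPKM and 5.68% of FPKM times length, and the mitochondrial genome 3.52% and 1.22%. How the reads of their copies were divided is unknown for both. Depth limits the absent class: a gene without a read in either library can lie at up to 3 reads. No paired analysis was possible because the result comes from no test and the deposited values carry no replicate numbers.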

Other observations

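The following genes were picked from the most abundant ones of the isotonic scramble cells after their values were seen, and describe those genes only. Beside Hsp90ab1, the cytosolic chaperone genes Hsp90aa1 (479 FPKM), Hspa8 (470), Hspb1 (249) and Cryab (144) were high. Hspb1 had 328 FPKM in library A and 170 in library B. Of the windows of Hsp90aa1 and Hspa8, 42.8% and 32.8% occur in other genes. The co-chaperone Stip1 (439 FPKM) and the chaperonin subunits Cct2 (327) and Cct5 (285) were high too. In the endoplasmic reticulum, Calr had 268 FPKM, Pdia3 264, Hsp90b1 187 and Hspa5 145 FPKM. Of glycolysis, Pkm had 411 FPKM, Ldha 356, Tpi1 313, Pgam1 283 and Eno1 182 FPKM, all above both library values of Gapdh. Basigin (Bsg), the partner of lactate transporters, had 479 FPKM. The actin genes Actb and Actg1 had 499.5 and 389 FPKM and were the 2 expressed of 7 (28.6%, against 45.3% of all protein-coding genes). Smooth muscle Acta2 was absent. Tubulins were led by Tubb5 (469.8 FPKM) and Tuba1b (389), but 64.3% of the windows of Tuba1b occur in other genes. Ezr and Slc9a3r1, which anchor proteins at the apical membrane, had 167 and 141 FPKM.

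Of 77 nuclear genes of oxidative phosphorylation, 70 were expressed (90.9%, against 45.3% of all protein-coding genes). They were led by Cox8a (553 FPKM), Atp5b (458) and Cox6a1 (406). Of 39 proteasome genes, 35 were expressed (89.7%, against 45.3%), led by Psma6 (156 FPKM) and Psmc5 (143). In serine synthesis Phgdh had 173 FPKM and Psat1 109.6 FPKM, and the factor Atf4 itself had 161 FPKM. Of a list of 17 chemokine genes, which does not hold Ppbp (289 FPKM), 11 were expressed (64.7%, against 45.3%). Cxcl5 had 428 FPKM, Cxcl1 25.5, Ccl20 20.8, Cxcl16 18.8 and Cxcl2 16.7 FPKM.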
